A study of Rattus norvegicus with 32 samples.

Results

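Gsn and further genes that regulate actin filaments were examined in the hippocampus of adult rats whose mothers had received different iron and choline diets. The list held 10 genes: Gsn, Capg, Cfl1, Cfl2, Dstn, Pfn1, Pfn2, Cap1, Ppp1r9a and Rnd3. A gene of the list was found by its symbol, and 9 of the 10 had an entry among the 32883 genes of the deposited count tables. Pfn2 had none under that symbol, so its level was not analysed here. The list was selected on results of these data that were already known, but which values were used is not recorded. The comparison of FID with IS in batch I, in which Gsn, Ppp1r9a and Rnd3 met the study's criterion, is taken here as used. For that comparison the values of the listed genes are therefore a description, with no test. In the other comparisons, those of batch II included, each p came from a fit over all genes and may not be free of that choice, and the list as a whole was not tested.

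The animals were Sprague-Dawley rats, and total RNA of the tissue was sequenced at postnatal day 65 (P65). IS rats came from dams kept on an iron-sufficient diet, FID (formerly iron-deficient) rats from dams given an iron-deficient diet from early gestation to the end of the first postnatal week, and ISch and FIDch rats from dams on the same diets with added choline in later gestation. All of them received the iron-sufficient diet afterwards, so that the FID and FIDch rats were iron-repleted when the tissue was taken, and the sample records of batch II write FID as ID and FIDch as IDCh. Each diet group had 4 males, sequenced as batch I, and 4 females, sequenced as batch II, which gave 32 libraries. Sex, sequencing batch and the RNA extraction kit changed together between the sets and cannot be told apart, and levels are compared only within a batch. The study's methods state that a litter gave a single male, and no litter is recorded for the females. Total counts ran from 3515806 to 9517503 in the 16 libraries of batch I, with the lowest in FIDch replicate 2, and from 18439999 to 26616318 in the 16 libraries of batch II. A gene with no counts could thus have been present at up to 0.853 counts per 1000000 counts of the library (CPM) in the shallowest library, the level that 3 counts stand for there. That limit covers counting error alone. All 6 markers of hippocampal fields (Prox1, Wfs1, Pcp4, Grik4, Zbtb20 and C1ql2) were detected in both batches, with summed levels of 746 to 852 CPM in batch I and 776 to 1143 in batch II.

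Actin filaments grow by addition of monomers at the barbed end and shrink from the pointed end, and the proteins described here set the pace of this cycle. Severing and capping proteins cut filaments or block their ends, cofilins cut and disassemble aged filaments, profilins and cyclase-associated proteins return monomers for new growth, and scaffold proteins decide where this happens. In the hippocampus the cycle shapes dendritic spines and growing processes, and in white matter it takes part in the extension and wrapping of oligodendrocyte processes.

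Levels are given as CPM after TMM normalization over the 16 libraries of a batch, with the standard deviation (SD) over the 4 libraries of a group. A log2 fold change, from an edgeR quasi-likelihood fit to the libraries of the compared groups, is the level of the first-named group over the second. The study's criterion was an absolute log2 fold change over 0.2 with an unadjusted p under 0.05, and the adjusted p beside it is the Benjamini-Hochberg value over all genes tested in that comparison. All 9 genes passed the filter on low counts in each of the 10 comparisons within batches.

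Within batch I, 3 of the 9 genes met the criterion for FID compared to IS (Ppp1r9a and Rnd3 higher, Gsn lower), where 4.62% of all genes tested did. This count comes from the comparison taken as used to choose genes of the list, so nothing is read from it. Further counts of this batch that use its IS or FID libraries are in part set by the same choice. FIDch compared to IS gave 1 gene (Cfl2, lower), beside 6.12% of all genes. ISch compared to IS gave 2 genes (Ppp1r9a and Rnd3, both higher), beside 8.06% of all genes. The comparison of FIDch with FID, which asks what choline changed on the iron-deficient background, gave 3 genes (Gsn higher, Cfl2 and Ppp1r9a lower) beside 13.0% of all genes. FIDch compared to ISch gave 1 gene (Ppp1r9a, lower) beside 8.12%. The median log2 fold change of the 9 genes lay between -0.08 and -0.04 in these 5 comparisons, and that of all genes between -0.01 and 0.01. The share of all genes depended on single control libraries: without IS replicate 3 it was 8.79% for FID compared to IS and 12.9% for ISch compared to IS, and without IS replicate 1 it was 2.82% for FID compared to IS.

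Within batch II, Gsn alone of the 9 genes met the criterion for FID compared to IS, and it was higher, beside 6.47% of all genes. Gsn and Rnd3 were both higher in FIDch than in IS, so that 2 genes met it beside 8.98% of all genes. The same 2 genes were higher in ISch than in IS, beside 10.3% of all genes. FIDch differed from FID at the criterion in 2 genes (Rnd3 higher, Gsn lower), beside 12.7% of all genes. For FIDch compared to ISch, 0 of the 9 genes met it in edgeR, beside 4.57% of all genes. Without FIDch replicate 4 that share was 7.02%. Pairs of FIDch libraries with replicate 4 had a chi-square of counts per gene of 22.4 to 25.2 and the other FIDch pairs 5.35 to 6.87, where counting error alone gives about 1. In this comparison 1 gene (Cfl2) had an unadjusted p under 0.05, DESeq2 gave a count of 0 as well, and 1 gene met the criterion without ISch replicate 1 or without FIDch replicate 3. Comparisons of a batch share groups and are not independent of each other. The median log2 fold change of the 9 genes lay between 0.00 and 0.08 in batch II, and that of all genes was 0.00 in each comparison. Counts of 0 to 3 among 9 genes say little about the list as a whole, and the results are therefore given gene by gene.

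**Figure D1:**
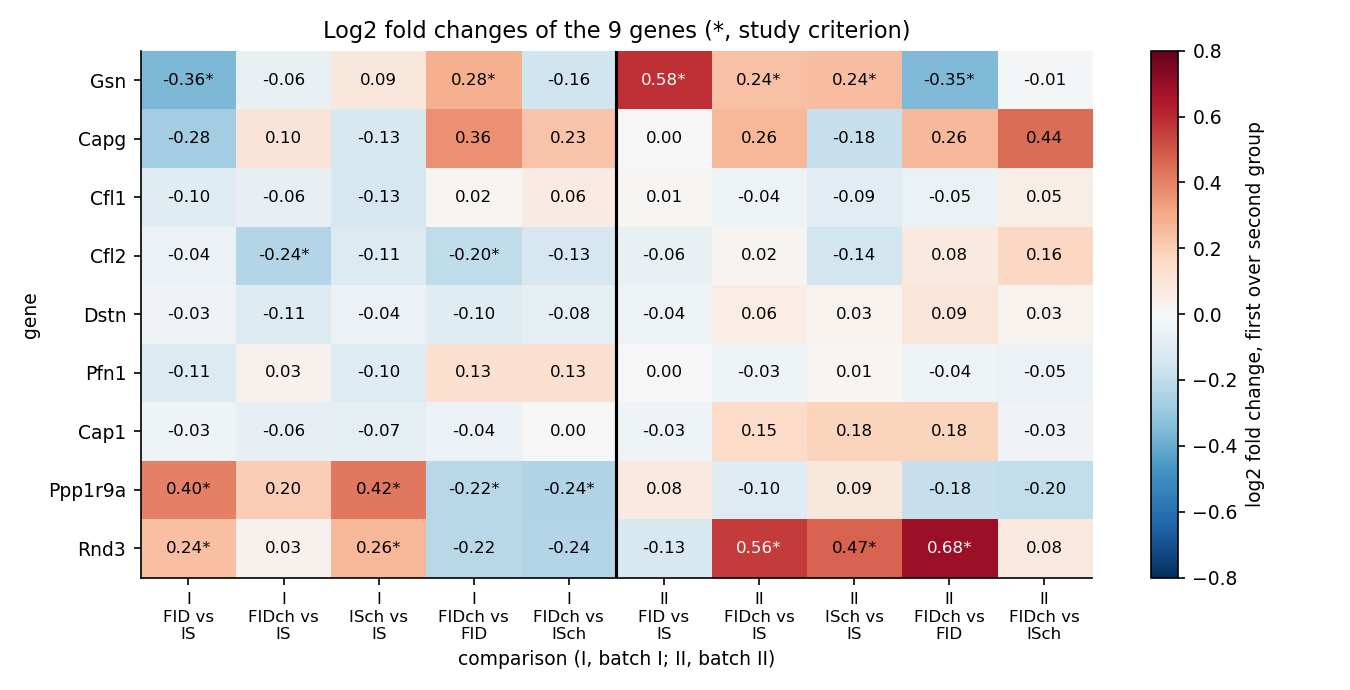
Log2 fold changes of the 9 genes (vertical axis) in the 10 comparisons within batches (horizontal axis, batch I left and batch II right of the line), with colour from blue (lower in the first-named group) to red (higher) and an asterisk where the study's criterion was met. Gsn carries -0.36 and 0.58 for FID compared to IS in batches I and II, and Rnd3 carries 0.56, 0.47 and 0.68 in batch II.

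Gsn (ENSRNOG00000018991) encodes gelsolin, a calcium-dependent protein that severs actin filaments and caps their barbed ends. Promoter sequences from 250 bases before to 50 bases after the start were available for 8 of the 10 listed genes from RefSeq on the build GRCr8, while the counts were made on Rnor_6.0. They were searched on both strands for GGGCGG (the GC box bound by SP1), for TATAAA and for the CArG box, the site of serum response factor, a known regulator of many actin genes. The promoters of Gsn and, further on, of Rnd3 are shown because these genes met the criterion in more comparisons than any other gene of the list. That of Gsn lies on the plus strand at chr3:39008682-39008981, and capitals mark the matches found.
Gsn: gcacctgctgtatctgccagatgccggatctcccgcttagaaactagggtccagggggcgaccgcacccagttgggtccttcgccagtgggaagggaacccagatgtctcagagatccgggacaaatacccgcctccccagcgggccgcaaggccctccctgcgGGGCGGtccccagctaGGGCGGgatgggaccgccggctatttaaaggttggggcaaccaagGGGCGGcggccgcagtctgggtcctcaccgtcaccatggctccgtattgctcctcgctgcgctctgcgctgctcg
It held 3 matches to GGGCGG and none to TATAAA or the CArG box. GGGCGG occurred in 33.1% of all 33469 promoters of this length and in 7 of the 8 available for the list, that of Pfn2 included. These matches describe letters in the window and not sites in use. A single window per gene was searched. Counts cover the whole gene, and whether the counted transcripts start at this window was not examined.

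In batch I, the FID group had the lowest Gsn levels and the ISch group the highest. The IS libraries had Gsn at 114, 117, 120.2 and 146 CPM, and the FID libraries at 104, 99.1, 81.2 and 104 CPM. All FID libraries lay below all IS libraries, IS replicate 4 was the highest of the batch and FID replicate 3 the lowest. The ISch libraries had Gsn at 121, 136, 141 and 131 CPM, and the FIDch libraries at 113, 127, 122 and 113 CPM. The ISch and FIDch libraries overlapped with the IS libraries and with each other, and all of them lay above the FID libraries. Group means were 124 ± 14.6 CPM for IS, 132 ± 8.42 for ISch, 97.0 ± 10.8 for FID and 119 ± 7.04 for FIDch (SD, n = 4 each). Counts behind these levels ran from 451 to 1254.

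As a description, the log2 fold change of Gsn for FID compared to IS in batch I was -0.36 (SE 0.0972). Gsn rose in FIDch compared to FID by 0.28 on the log2 scale (SE 0.0805, unadjusted p = 0.00374), with all 4 FIDch libraries above all 4 FID libraries, but the edgeR p adjusted over all genes was 0.103. This test uses the FID libraries that are taken as used to select Gsn, so a high value relative to FID is in part set by that choice, and the same holds for the other genes in tests that use the IS or FID libraries of batch I. FIDch compared to IS gave -0.06 (SE 0.0827, unadjusted p = 0.464) and ISch compared to IS gave 0.09 (SE 0.0815, unadjusted p = 0.298), each within the spread of the libraries. Both depended on IS replicate 4, without which they were 0.02 (unadjusted p = 0.797) and 0.17 (unadjusted p = 0.0313). FIDch compared to ISch gave -0.16 (SE 0.0605, unadjusted p = 0.0193), which is short of the fold change in the criterion. Without ISch replicates 1 and 2, left out after seeing the data, it was -0.20 (unadjusted p = 0.0158) and met the criterion.

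The order of the diet groups was another in batch II, where the FID group had the highest Gsn levels and the IS group the lowest. The IS libraries had Gsn at 106, 89.6, 104 and 97.1 CPM, and the FID libraries at 136, 158, 163 and 138 CPM. The FID libraries lay above the libraries of every other diet group of the batch, without overlap. The ISch libraries had Gsn at 109.5, 131, 110.5 and 118 CPM, and the FIDch libraries at 106, 124, 113 and 124 CPM. These groups overlapped with each other almost fully, and both lay above the IS libraries, FIDch replicate 1 by the narrowest margin (105.61 against 105.54 CPM in IS replicate 1). Group means were 99.0 ± 7.24 CPM for IS, 117 ± 10.02 for ISch, 148 ± 13.9 for FID and 117 ± 9.06 for FIDch (SD, n = 4 each). Counts behind these levels ran from 2085 to 3417.

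In batch II, Gsn rose in FID compared to IS by 0.58 on the log2 scale (SE 0.0685), with 4 of 4 FID libraries above the IS libraries and an edgeR adjusted p of 0.00357. It fell in FIDch compared to FID by 0.35 (SE 0.0750, edgeR adjusted p = 0.0382), again without overlap. That adjusted p ran from 0.00147 to 0.131 over the alternatives, and it was 0.0596 or more without any 1 of 7 of the 8 libraries, FIDch replicate 4 being the exception. FIDch compared to IS gave 0.24 (SE 0.0697, unadjusted p = 0.00610), with an edgeR adjusted p of 0.178. ISch compared to IS gave 0.24 (SE 0.0686, unadjusted p = 0.00445), with an edgeR adjusted p of 0.103. Each of these last comparisons met the study's criterion but not the adjusted threshold, and each lost the criterion without 1 library. The fold change of FIDch compared to IS was 0.19 without IS replicate 2, and that of ISch compared to IS was 0.19 without ISch replicate 2. FIDch compared to ISch gave -0.01 (SE 0.0739, unadjusted p = 0.906), and its sign changed without ISch replicate 2 (0.05), FIDch replicate 1 (0.04) or FIDch replicate 3 (0.01).

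Gsn was also compared on its CPM by a 2-sided exact permutation test in 9 comparisons, all but that of FID with IS in batch I. In 5 of them the groups did not overlap and p was 0.0286, the smallest value that 4 against 4 libraries can give, with 0.0514 after adjustment over the 9 comparisons: FIDch against FID in batch I (a difference of 22.0 CPM), and in batch II FID against IS (49.5 CPM), FIDch against IS (17.7 CPM), ISch against IS (18.4 CPM) and FIDch against FID (-31.8 CPM). In the other 4 comparisons the exact permutation p was 0.657, 0.371 and 0.0857 for FIDch against IS, ISch against IS and FIDch against ISch in batch I and 0.971 for FIDch against ISch in batch II. The FID libraries of batch I are taken as used to select Gsn, so its separation from them in that batch is in part set by that choice. This test cannot pass 0.05 after adjustment unless more than 5 of the 9 comparisons reach its smallest p. With DESeq2 size factors in place of TMM, the FIDch and IS libraries of batch II no longer separated fully, and the exact permutation p was 0.0571 for a difference of 17.6 CPM.

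**Figure D2:**
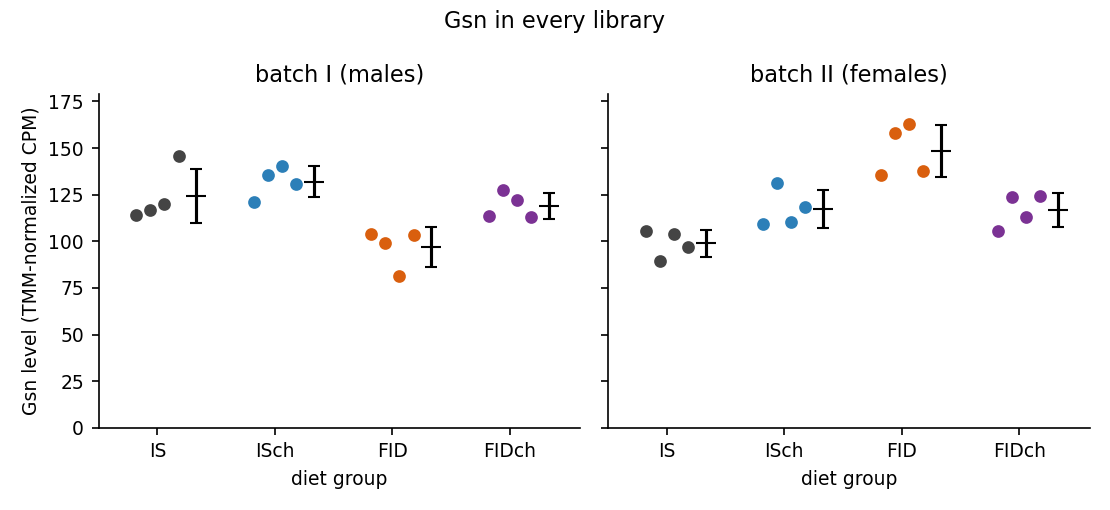
Level of Gsn in TMM-normalized CPM (vertical axis, from 0) in each library, by diet group (horizontal axis) in batch I (left) and batch II (right), with points for libraries and bars for the mean and SD of 4 libraries. The FID libraries sit lowest in batch I, between 81.2 and 104 CPM, and highest in batch II, between 136 and 163 CPM.

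Gelsolin is known to be abundant in oligodendrocytes, and in bulk tissue fewer cells of a type and less RNA per cell cannot be told apart. Among 9340 genes with a mean of at least 10 CPM in both batches, those with levels most like Gsn were ranked by the smaller of their Pearson correlations of log2 CPM with Gsn in batch I and in batch II, over 16 libraries each. The first was Basp1, a membrane-bound protein of growing nerve endings, with r of 0.65 in batch I and 0.70 in batch II. The second was Sox10, a transcription factor of the oligodendrocyte lineage, with r of 0.63 and 0.69. Then came Nkd1 (0.58 and 0.68), Ndufb6 (0.58 and 0.61), AC109096.1 (0.59 and 0.58), Map7d1 (0.67 and 0.58), Cebpa (0.57 and 0.61) and Snrpd2 (0.64 and 0.56). These values are descriptions, since the libraries share diet groups and the genes were ranked on the same values. A single gene such as Sox10 does not stand for oligodendrocytes as a whole, whose summed markers are not reported here.

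Capg, a relative of gelsolin that caps filaments without cutting them, was measured from few counts, 11 to 33 in the libraries of batch I and 38 to 133 in those of batch II. Its coefficient of variation within diet groups reached 42.6% in batch I and 30.8% in batch II. Group means ranged from 2.14 to 2.88 CPM in batch I and from 2.81 to 3.82 CPM in batch II, and FIDch was the highest group in each. The largest tested fold change was that of FIDch compared to ISch in batch II, 0.44 with an SE of 0.217 (unadjusted p = 0.0669, edgeR adjusted p = 0.638). At this depth a difference of that size was not distinguishable from the spread of the libraries.

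Of the ADF/cofilin family, whose members cut and disassemble filaments, Cfl2 alone met the criterion in a tested comparison. Cfl2 encodes the cofilin first known from muscle, and in batch I its IS libraries were at 82.6, 83.1, 78.8 and 85.7 CPM and its FIDch libraries at 73.4, 66.0, 75.3 and 64.6 CPM. All FIDch libraries lay below all IS libraries. The FID libraries of batch I were at 78.3, 87.4, 73.8 and 81.5 CPM and the ISch libraries at 75.6, 72.3, 79.0 and 79.8 CPM. The range of FID reached down into that of FIDch, because FID replicate 3 lay below the highest FIDch library, and ISch lay between IS and FIDch with overlap on both sides.

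The log2 fold change of Cfl2 for FIDch compared to IS in batch I was -0.24 (SE 0.0723, unadjusted p = 0.00632), with an edgeR adjusted p of 0.406. It was -0.20 without FIDch replicate 4, just short of the fold change in the criterion. FIDch compared to FID gave -0.20 (SE 0.0740, unadjusted p = 0.0160), with an edgeR adjusted p of 0.184, and this call was lost with DESeq2 size factors in edgeR, with DESeq2 itself and with the batch's 4 groups in 1 fit, each with a fold change of -0.20. It was lost as well without FID replicate 2 (-0.15), FID replicate 4 (-0.20), FIDch replicate 2 (-0.18) or FIDch replicate 4 (-0.16). In batch II, where group means of Cfl2 were 65.6 to 73.4 CPM, ISch lay below IS and below FIDch without overlap. Those fold changes, -0.14 for ISch compared to IS (unadjusted p = 0.00582, edgeR adjusted p = 0.116) and 0.16 for FIDch compared to ISch (unadjusted p = 0.00845, edgeR adjusted p = 0.556), are short of the criterion.

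Cfl1, the main cofilin of non-muscle cells, had group means of 742 to 815 CPM in batch I and 844 to 906 CPM in batch II. ISch was the lowest group in both batches, and its log2 fold change to IS was -0.13 in batch I (unadjusted p = 0.0413, edgeR adjusted p = 0.465) and -0.09 in batch II (unadjusted p = 0.0477, edgeR adjusted p = 0.299), below the fold change in the criterion. Dstn, which encodes destrin or actin depolymerizing factor, had group means of 50.7 to 54.4 CPM in batch I and 79.8 to 85.4 CPM in batch II. Its tested fold changes lay between -0.11 and 0.09, and in FIDch compared to FID of batch II, the 0.09, the libraries did not overlap (unadjusted p = 0.0975). How reads that align to several places were counted is not stated, and Cfl1 and Pfn1 have near-identical copies elsewhere in the genome, so their levels may depend on that setting.

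Pfn1, a profilin that carries actin monomers to the barbed end, had group means of 124 to 136 CPM in batch I and 111 to 114 CPM in batch II. Its group means differed at most 1.096-fold in batch I and 1.03-fold in batch II, and its smallest unadjusted p in a tested comparison was 0.0750, for FIDch compared to ISch in batch I.

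Cap1, a cyclase-associated protein that recycles monomers from cofilin-bound actin, was higher in both choline groups of batch II, by less than the criterion asks. The IS libraries of batch II had Cap1 at 403, 388, 381 and 383 CPM and the ISch libraries at 422, 445, 447 and 446 CPM. The FID libraries had it at 369, 371, 378 and 403 CPM and the FIDch libraries at 430.5, 424, 421 and 451 CPM. Every ISch and FIDch library lay above every IS and FID library, and FID replicate 4 was the highest of the FID group. The log2 fold change was 0.18 for ISch compared to IS (SE 0.0369), with an edgeR adjusted p of 0.0313 and 4 of 4 ISch libraries above the IS libraries. It was 0.15 for FIDch compared to IS (SE 0.0420, edgeR adjusted p = 0.151) and 0.18 for FIDch compared to FID (SE 0.0451, edgeR adjusted p = 0.0694). In batch I, group means of Cap1 were 379 to 399 CPM, all groups overlapped, and the fold changes lay between -0.07 and 0.00.

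Ppp1r9a encodes neurabin, a filament-binding scaffold of dendritic spines that holds protein phosphatase 1. In batch I its IS libraries were at 54.9, 101, 109.8 and 101 CPM and its ISch libraries at 139.5, 125, 119.8 and 105 CPM. IS replicate 1 lay far below the other libraries of the batch, and the rest of the IS group overlapped with the ISch group. The FID libraries were at 115, 108, 131 and 129.7 CPM and the FIDch libraries at 91.9, 128, 94.8 and 107 CPM. FIDch overlapped with every other group, with FIDch replicate 2 inside the range of FID and ISch. Group means were 91.8 ± 24.9 CPM for IS, 122 ± 14.4 for ISch, 121 ± 11.3 for FID and 105 ± 16.3 for FIDch (SD, n = 4 each).

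As a description, Ppp1r9a had a log2 fold change of 0.40 for FID compared to IS in batch I, and 0.22 at the lowest over the alternatives tried. The IS and FID libraries compared here are taken as used to select Ppp1r9a, so tests with either are in part set by that choice. For ISch compared to IS the log2 fold change was 0.42 (SE 0.167, unadjusted p = 0.0266), with an edgeR adjusted p of 0.451. Without IS replicate 1 that fold change was 0.23, still at the criterion, while the criterion was lost without ISch replicate 1 (0.35), without ISch replicate 2 (0.41) and with DESeq2 (0.42). It was -0.22 for FIDch compared to FID (SE 0.0988, unadjusted p = 0.0427, edgeR adjusted p = 0.264), and for FIDch compared to ISch -0.24 (SE 0.1005, unadjusted p = 0.0328, edgeR adjusted p = 0.323). Both of these calls were lost with the batch's 4 groups in 1 fit, -0.21 and -0.23.

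Single libraries decided those calls too. The call of FIDch compared to FID was lost without FID replicate 3 (-0.18), FID replicate 4 (-0.18), FIDch replicate 1 (-0.16), FIDch replicate 3 (-0.17) or FIDch replicate 4 (-0.23). That of FIDch compared to ISch was lost without ISch replicate 1 (-0.17), ISch replicate 2 (-0.23), FIDch replicate 1 (-0.17), FIDch replicate 3 (-0.19) or FIDch replicate 4 (-0.25). Without ISch replicates 1 and 2 together it was -0.12 (unadjusted p = 0.325), and that of ISch compared to IS was 0.29 (unadjusted p = 0.2003). In batch II, Ppp1r9a met the criterion in 0 of the 5 comparisons by edgeR, the smallest unadjusted p was 0.131, and group means ran from 96.3 to 110.4 CPM.

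Rnd3 (ENSRNOG00000004624) encodes an atypical small GTPase that lowers the formation of stress fibres. Its promoter lies on the minus strand at chr3:55998445-55998744 and is written in the direction of transcription, with capitals for the matches found.
Rnd3: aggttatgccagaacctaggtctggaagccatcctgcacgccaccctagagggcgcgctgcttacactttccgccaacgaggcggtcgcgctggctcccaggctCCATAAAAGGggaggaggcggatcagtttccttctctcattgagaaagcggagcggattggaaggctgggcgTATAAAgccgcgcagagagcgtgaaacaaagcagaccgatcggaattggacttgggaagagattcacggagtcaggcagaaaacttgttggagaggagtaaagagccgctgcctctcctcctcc
It held 1 match to the CArG box and 1 to TATAAA, and none to GGGCGG. The CArG box occurred in 1.64% and TATAAA in 14.2% of all promoters of this length, and Rnd3 was the sole gene of the 8 with either. As for Gsn, a match is a description of the window.

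In batch II the levels of Rnd3 fell into separate sets by choline. The IS libraries were at 19.3, 16.6, 17.9 and 17.8 CPM and the ISch libraries at 21.3, 27.2, 24.7 and 26.5 CPM. The FID libraries were at 17.4, 16.5, 15.4 and 16.2 CPM and the FIDch libraries at 25.1, 25.9, 27.7 and 26.7 CPM. All libraries of both choline groups lay above all libraries of both groups without choline, and ISch replicate 1 was the lowest of the former. Group means were 17.9 ± 1.08 CPM for IS, 24.9 ± 2.66 for ISch, 16.4 ± 0.798 for FID and 26.4 ± 1.11 for FIDch (SD, n = 4 each), from 293 to 690 counts a library.

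Rnd3 rose in FIDch compared to FID of batch II by 0.68 on the log2 scale (SE 0.0657), with 4 of 4 FIDch libraries above the FID libraries and an edgeR adjusted p of 0.000633. It rose in FIDch compared to IS by 0.56 (SE 0.0667, edgeR adjusted p = 0.00473) and in ISch compared to IS by 0.47 (SE 0.0855, edgeR adjusted p = 0.0187), each without overlap. FID compared to IS gave -0.13 (SE 0.0717, unadjusted p = 0.1001) and FIDch compared to ISch gave 0.08 (SE 0.0803, unadjusted p = 0.335). Those 3 calls met the criterion under each of the 13 other settings run on them, with fold changes of 0.66 to 0.71, 0.52 to 0.59 and 0.43 to 0.54. Their edgeR or DESeq2 adjusted p was at most 0.0105 for FIDch compared to FID and 0.0496 for FIDch compared to IS. For ISch compared to IS it rose above 0.05 with the replicate number as a block (0.0980) and without IS replicate 2 (0.0677), IS replicate 4 (0.0601), ISch replicate 2 (0.0572) or ISch replicate 4 (0.0615).

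In batch I the IS libraries had Rnd3 at 19.2, 19.99, 19.7 and 20.5 CPM and the ISch libraries at 20.8, 22.8, 27.8 and 24.0 CPM. The FID libraries were at 24.3, 22.1, 21.3 and 26.5 CPM and the FIDch libraries at 19.7, 20.9, 23.2 and 17.3 CPM. The IS group was tight and lay below all ISch and all FID libraries, while FIDch spanned the IS range and reached into that of ISch and FID. As a description, FID compared to IS gave a log2 fold change of 0.24, and 0.19 without FID replicate 4. These IS and FID libraries are taken as used to select Rnd3, so tests with either are in part set by that choice. ISch compared to IS gave 0.26 (SE 0.102, unadjusted p = 0.0231), with an edgeR adjusted p of 0.442, and 0.19 without ISch replicate 3, when the criterion was no longer met. FIDch compared to FID gave -0.22 (unadjusted p = 0.0630) and FIDch compared to ISch gave -0.24 (unadjusted p = 0.0540), both past the fold change and short of the p in the criterion. Without ISch replicates 1 and 2 the latter was -0.35 (unadjusted p = 0.0150).

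**Figure D3:**
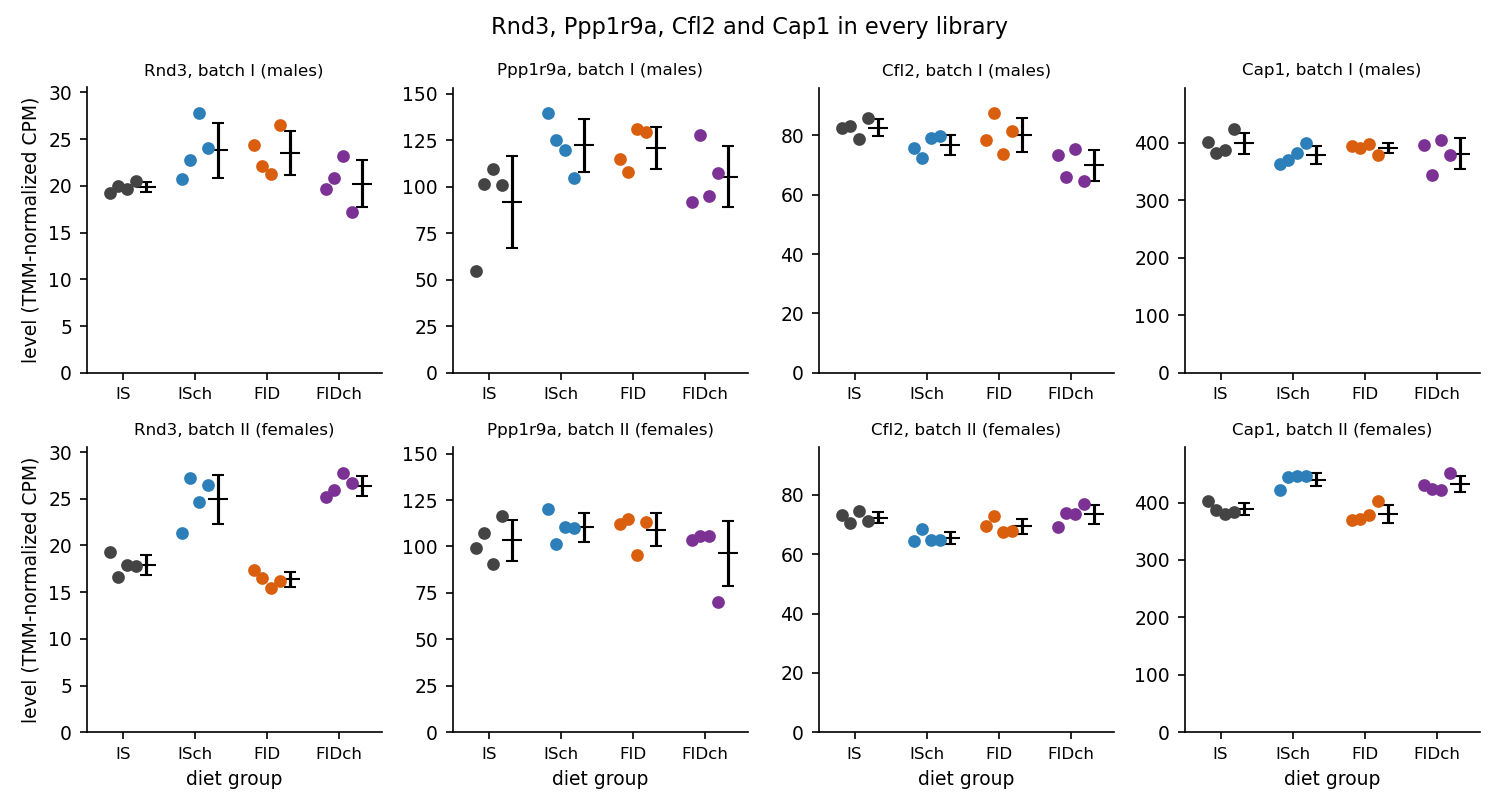
Levels of Rnd3, Ppp1r9a, Cfl2 and Cap1 in TMM-normalized CPM (vertical axes, from 0) in each library, by diet group (horizontal axes), with batch I above and batch II below, points for libraries and bars for the mean and SD of 4 libraries. In batch II the ISch and FIDch libraries of Rnd3 lie at 21.3 to 27.7 CPM and the IS and FID libraries at 15.4 to 19.3 CPM.

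Whether an effect differed between the batches was tested as an interaction (the effect in batch II minus that in batch I) in 4 comparisons, with the same criterion on the difference. That of FID with IS was left out, since its values in batch I are taken as used to select genes. The tests other than FIDch with ISch use IS or FID libraries of batch I. Their counts are in part set by that choice. The difference met the criterion for 4 of the 9 genes in FIDch compared to IS, all with a higher value in batch II, beside 12.9% of all genes. In ISch compared to IS it did for 1 gene (Cap1, higher), beside 14.2% of all genes. It did for 4 genes in FIDch compared to FID (Cfl2, Cap1 and Rnd3 higher, Gsn lower), beside 17.7% of all genes. It did for 2 genes in FIDch compared to ISch (Cfl2 and Rnd3, higher), beside 9.89% of all genes.

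The effect of FIDch against FID on Gsn was 0.28 in batch I and -0.35 in batch II, a difference of -0.65 (SE 0.117) with an edgeR adjusted p of 0.00896, and the libraries of each batch did not overlap between the groups. That on Rnd3 was -0.22 in batch I and 0.68 in batch II, a difference of 0.89 (SE 0.124) with an edgeR adjusted p of 0.00168. Over the alternatives these differences ranged from -0.70 to -0.57 and from 0.81 to 0.97. The FID libraries of batch I enter both, and they are taken as used to select genes, so each difference is in part set by that choice and the p values take no account of it. For FIDch against IS, the difference was 0.31 for Gsn (SE 0.113, unadjusted p = 0.0145, edgeR adjusted p = 0.237) and 0.53 for Rnd3 (SE 0.116, unadjusted p = 0.000243, edgeR adjusted p = 0.0543). The IS libraries of batch I, taken as used too, enter these differences and those of ISch against IS, so the same limit holds. The difference of Rnd3 for FIDch against ISch was 0.30 (unadjusted p = 0.0495, edgeR adjusted p = 0.432), and 9 of its 21 alternatives kept the criterion. For ISch against IS, neither the difference of Gsn, 0.15 (unadjusted p = 0.188), nor that of Rnd3, 0.21 (unadjusted p = 0.125), met it.

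Cfl2 differed between batches by 0.26 for FIDch against IS (unadjusted p = 0.00507, edgeR adjusted p = 0.163), by 0.26 for FIDch against FID (unadjusted p = 0.00897, edgeR adjusted p = 0.114) and by 0.28 for FIDch against ISch (unadjusted p = 0.00320, edgeR adjusted p = 0.221). Cap1 differed by 0.25 for ISch against IS (unadjusted p = 0.000786, edgeR adjusted p = 0.0544), 0.22 for FIDch against IS (unadjusted p = 0.00896, edgeR adjusted p = 0.204) and 0.21 for FIDch against FID (unadjusted p = 0.0126, edgeR adjusted p = 0.138). The call of Cap1 for FIDch against IS was lost without IS replicate 4 (0.19) or FIDch replicate 2 (0.18) of batch I or FIDch replicate 4 of batch II (0.19). That for FIDch against FID was lost without FID replicate 1 (0.20), FID replicate 3 (0.20) or FIDch replicate 2 (0.16) of batch I, or FID replicate 1 (0.19) or FIDch replicate 4 (0.18) of batch II. The libraries of batch I are shallower, and the interaction cannot separate sex from batch.

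**Figure D4:**
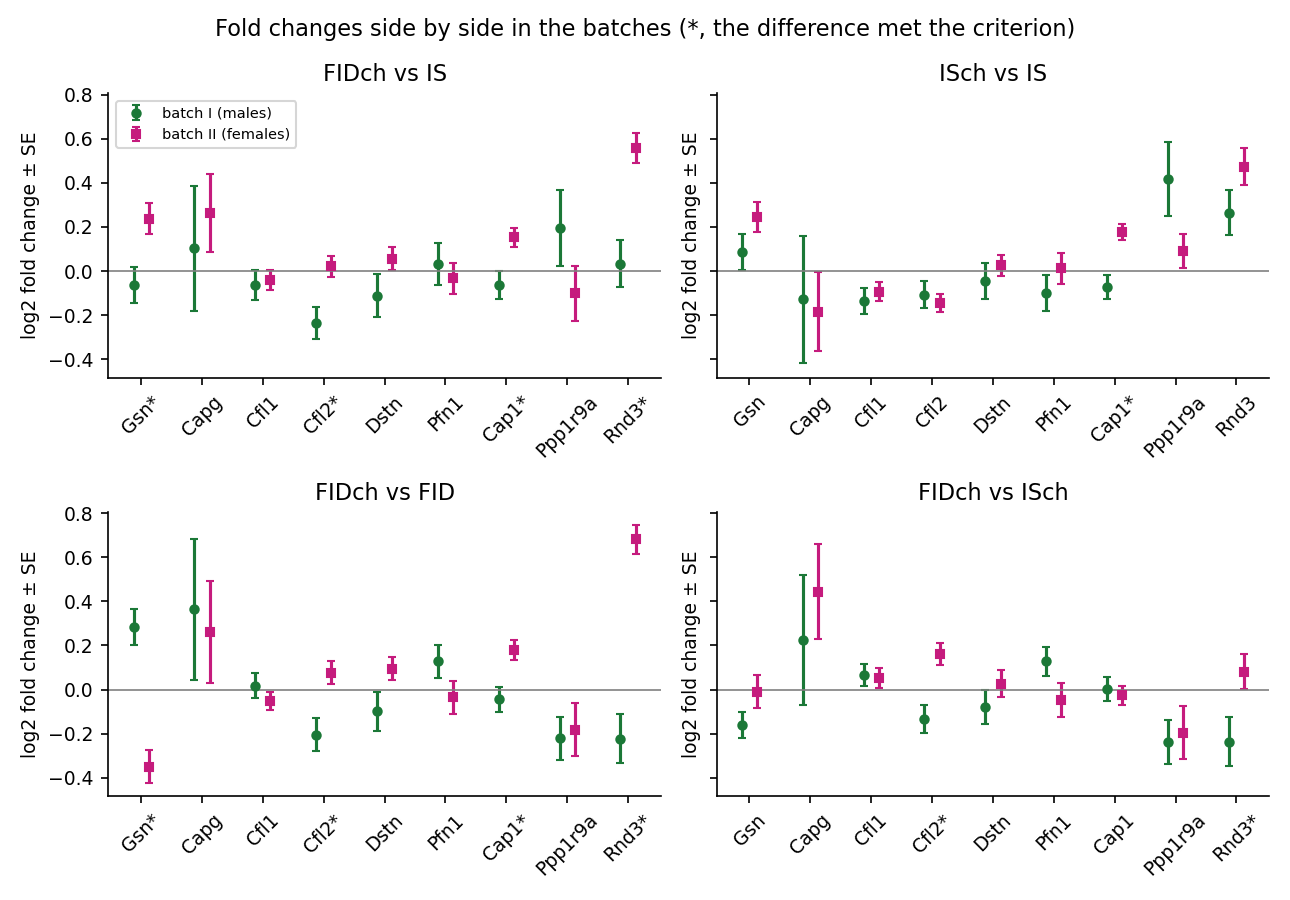
Log2 fold changes with their SE (vertical axes) of the 9 genes (horizontal axes) in batch I (green circles) and batch II (purple squares) for the 4 comparisons whose difference was tested, with an asterisk where the difference met the criterion. For FIDch against FID, Gsn lies at 0.28 in batch I and -0.35 in batch II, and Rnd3 at -0.22 and 0.68.

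A wider list of 119 actin genes (actin isoforms, other gelsolin relatives, cofilin kinases and phosphatases, monomer-binding proteins, Arp2/3 subunits and their activators, formins, capping proteins, crosslinkers, tropomyosins and upstream signalling proteins) was set beside the 9 genes, and 115 of them had an entry. In batch I, the criterion was met by 3 of 106 tested genes for FID compared to IS, 5 of 105 for FIDch compared to IS and 6 of 107 for ISch compared to IS. It was met by 9 of 105 for FIDch compared to FID and 7 of 106 for FIDch compared to ISch. In batch II it was met by 6, 4, 9, 12 and 2 of 109 tested genes for FID against IS, FIDch against IS, ISch against IS, FIDch against FID and FIDch against ISch. These are shares of 1.83% to 11.01% over the 10 comparisons, each lower than the share of all genes, and the list's median log2 fold change lay between -0.03 and 0.02.

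Among them, Marcks, a filament-binding protein of the membrane, was lower in FIDch than in IS of batch I with a log2 fold change of -0.31 (edgeR adjusted p = 0.223). Capza2, a subunit of the protein that caps barbed ends, fell in FIDch compared to FID of batch I by 0.29, with an edgeR adjusted p of 0.0472, and was at 309 to 345 CPM in FIDch and 358 to 423 CPM in FID. In the same comparison Cdc42, a GTPase that starts filopodia, had -0.26 (edgeR adjusted p = 0.0543) and Tmsb10, a monomer-sequestering thymosin, had 0.35 (edgeR adjusted p = 0.120). Tmod2, a pointed-end capping protein of neurons, had 0.43 for ISch compared to IS (edgeR adjusted p = 0.385) and -0.35 for FIDch compared to ISch (edgeR adjusted p = 0.162) in batch I.

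In batch II, the formin Fhod3 fell in FIDch compared to FID by 0.50 (edgeR adjusted p = 0.0165), from 15.7 to 18.7 CPM in FID to 11.2 to 13.5 CPM in FIDch. Fscn1, or fascin, which bundles filaments, fell by 0.45 (edgeR adjusted p = 0.0161), from 42.9 to 53.1 CPM to 32.0 to 37.4 CPM. Marcksl1 had 0.45 for FID compared to IS (edgeR adjusted p = 0.232) and -0.56 for FIDch compared to FID (edgeR adjusted p = 0.140), and Lmod1, a leiomodin that nucleates filaments, had -0.56 (edgeR adjusted p = 0.114) and 0.55 (edgeR adjusted p = 0.0868) in the same comparisons. Coro2a, a coronin, had -0.57 for ISch compared to IS (edgeR adjusted p = 0.0837). The largest fold change among genes of the list at the criterion, 1.45 for Cttn in FID compared to IS, came from 1 of the 2 entries of that symbol and libraries that spread from 2.37 to 20.1 CPM in FID (edgeR adjusted p = 0.315).

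For differences between batches, 12 of 109 genes of the wider list met the criterion for FIDch against IS, 14 for ISch against IS, 21 for FIDch against FID and 9 for FIDch against ISch, which is 11.01%, 12.8%, 19.3% and 8.26% of those tested, beside 12.9%, 14.2%, 17.7% and 9.89% of all genes. Crosslinkers and spine scaffolds met the criterion in 7 of 13 genes for FIDch against FID, all lower in batch II relative to batch I, in 4 of 13 (1 higher, 3 lower) for FIDch against IS and for FIDch against ISch, and in 1 of 13 (lower) for ISch against IS. Cofilin kinases and phosphatases met it in 3 of 8 for FIDch against FID (lower), 0 of 8 for FIDch against IS by edgeR, 1 of 8 for FIDch against ISch (lower) and 2 of 8 for ISch against IS (1 higher, 1 lower). Both parts were picked out after their values were seen, and no part of the list was tested as such. Fscn1 differed by -0.52 for FIDch against FID (edgeR adjusted p = 0.0456). Rnd1, a relative of Rnd3, differed by -0.56 for ISch against IS (edgeR adjusted p = 0.0302).

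Markers of other cell types were read in the same libraries. Summed markers of oligodendrocyte precursors (Pdgfra, Cspg4, Gpr17 and C1ql1, with Pdgfra the most abundant) were at 183 ± 4.18 CPM for IS, 164 ± 13.3 for ISch, 185 ± 3.25 for FID and 157 ± 11.99 for FIDch of batch II (SD, n = 4 each), lower in both choline groups, in which Rnd3 was higher. In batch II, 3 of these 4 markers met the criterion for FIDch compared to FID (beside 12.7% of all genes), 2 for FIDch compared to IS (8.98%) and 1 for ISch compared to IS (10.3%), all lower. The difference between batches met it for 4 of 4 in FIDch against FID (17.7%), 2 in FIDch against IS (12.9%), 1 in ISch against IS (14.2%) and 0 in FIDch against ISch (9.89%) by edgeR, all lower. Their sums in batch I were 156, 162, 151 and 165 CPM for IS, ISch, FID and FIDch, without overlap between FID (145 to 154 CPM) and FIDch (160 to 168 CPM). Of the 4 markers, 1 met the criterion in batch I, higher, for FIDch compared to FID (13.0% of all genes) and to IS (6.12%). The same count, also higher, was found for ISch compared to IS (8.06%) and FIDch compared to ISch (8.12%). Differences between batches met the criterion in further lists, of which examples follow. For FIDch against FID (17.7%), microglial markers met it in 4 of 9 and endothelial and pericyte markers in 3 of 7, all lower. Interneuron markers met it there in 3 of 6 (1 higher, 2 lower). For FIDch against ISch (9.89%), endothelial and pericyte markers met it in 4 of 7, and smooth muscle and meninges markers in 4 of 7. All of these had a lower effect in batch II than in batch I. Within batch I (8.12%), 3 of 7 and 4 of 7 met the criterion for FIDch compared to ISch, all higher. Within batch II (4.57%), 0 of 7 of each did by edgeR. Excitatory neuron markers met it for FIDch against ISch in 2 of 5 (lower) and astrocyte markers in 3 of 8 (1 higher, 2 lower). Astrocyte markers met it in 3 of 8 for FIDch against IS (2 higher, 1 lower, beside 12.9%). Smooth muscle and meninges markers met it in 3 of 7 for ISch against IS (2 higher, 1 lower, beside 14.2%). The part of all these markers in the results for Gsn and Rnd3 was not tested.

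For FIDch compared to FID, in which Gsn met the criterion in both batches as it did for FID compared to IS, counts of markers are read beside 13.0% of all genes in batch I and 12.7% in batch II. Astrocyte markers met the criterion in 1 of 8 genes in batch I (lower) and 3 of 8 in batch II (2 higher, 1 lower), and microglial markers in 2 of 9 (higher) and 1 of 9 (lower). Markers of endothelial cells and pericytes met it in 4 of 7 (3 higher, 1 lower) and 1 of 7 (lower), and those of smooth muscle and meninges in 2 of 7 genes in each batch (1 higher, 1 lower). Those of excitatory neurons met it in 0 of 5 by edgeR, those of interneurons in 1 of 6 in each batch (lower) and those of hippocampal fields in 0 and 2 of 6 (higher). With lists this short, most of these counts are near what those shares give. In batch II, where Rnd3 rose in both choline groups, markers of hippocampal fields met the criterion in 3 of 6 genes for FIDch compared to IS (higher) and in 3 of 6 for ISch compared to IS (2 higher, 1 lower), and microglial markers in 1 of 9 and 3 of 9 (lower), beside 8.98% and 10.3% of all genes. Microglial sums in batch II were 280 ± 6.49 CPM for IS, 259 ± 14.4 for ISch, 279 ± 14.3 for FID and 253 ± 5.34 for FIDch (SD, n = 4 each). Choroid plexus markers, with Ttr the most abundant, summed to 392 CPM in FID replicate 4 of batch I and to 2.68 to 18.4 CPM in the other libraries of that batch, and 1 of the 7 markers was at 0 in all of them. For FIDch compared to FID, 1 choroid plexus marker was tested in batch I and 4 in batch II, and 1 met the criterion in each batch, lower. In batch II, 2 of 4 met it for FIDch compared to IS (lower), and 0 of 4 for ISch compared to IS by edgeR. Itgam, Pecam1 and Col1a2 of these lists had no entry. FID replicate 4 of batch I was at 104 CPM of Gsn, within the range of its group, and the part of the choroid plexus markers was not tested.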

How the data were processed

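RNA of 32 hippocampi was sequenced, and the authors deposited counts of reads per gene, which are whole numbers with no normalization. The submitters' processing notes name Trimmomatic, FastQC, HISAT2 and featureCounts of Subread, with no versions, and the build Rnor_6.0. The paper gives a HISAT2 version for the RNA-seq data it reprocessed, and an Ensembl release for its chromatin data. Annotation version, strand setting and the handling of multi-mapped reads are not stated for the counts, which could shift genes with near-identical copies. The members and lists were chosen with earlier results of these data known.

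Counts of each pair of diet groups within a batch were fitted in edgeR 4.0.16 (R 4.3.3; TMM, filterByExpr, quasi-likelihood, 2-sided, Benjamini-Hochberg over all genes tested), and differences between batches as an interaction over 16 libraries. The fits were also run on simulated data, whose outcome is not given here, and no result rests on it. Gsn was also compared by exact permutation with scipy 1.17.1. Named were the 10 listed genes, up to 4 genes of the wider actin list per comparison with the largest fold change among those at the criterion, the 8 genes most like Gsn, and of each marker list its count, sum and most abundant gene. Examples of these are printed. The planned correlation of Gsn with summed oligodendrocyte markers, and those sums, are not reported here. Deeper libraries give smaller counting error, and batch I is the shallower. Alternatives were RLE size factors, all genes with at least 1 count, DESeq2 1.42.0, the 4 groups of a batch in 1 fit, the replicate number as a block, an adjusted p under 0.05, library size alone and each library left out. Leaving out ISch replicates 1 and 2 of batch I together, whose column names have another form, was chosen after seeing the data; FIDch replicate 2 has that form too and was left out by itself alone. The FID with IS difference between batches was not tested, because batch I values of it are taken as used to select genes.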

Additional observations from a re-analysis of the deposited data

Results flagged for a closer look

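Within groups of 4 libraries, the highest or lowest value was set against the rest by Dixon's gap test at its 95% limit, over 160 groups (72 of them for the 9 genes, the others for the summed markers and the library totals). Chance flags about 1 in 20 groups, and 15 of the 160 went past the limit. For the 9 genes these were Ppp1r9a in IS replicate 1 of batch I (54.9 CPM, the others 101 to 109.8), in FID replicate 3 of batch II (95.7 CPM, the others 112 to 115) and in FIDch replicate 4 of batch II (70.1 CPM, the others 104 to 106). Cap1 in ISch replicate 1 of batch II was at 422 CPM, with the others at 445 to 447. Cfl2 in ISch replicate 2 of batch II was at 68.6 CPM, with the others at 64.3 to 64.7. Dstn was apart in FID replicate 3 (78.8 CPM, the others 80.1 to 80.2) and in FIDch replicate 4 (93.2 CPM, the others 82.4 to 83.1) of batch II.

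Among the summed markers, choroid plexus genes reached 392 CPM in FID replicate 4 of batch I (the others 6.69 to 18.4), 6.88 CPM in ISch replicate 2 of batch I (the others 3.13 to 3.62) and 18.5 CPM in FID replicate 3 of batch II (the others 4.95 to 6.52). Astrocyte markers were at 4068 CPM in ISch replicate 3 of batch II (the others 3623 to 3682), and endothelial and pericyte markers at 286 CPM in IS replicate 3 of batch I (the others 249 to 252). Microglial markers were low in ISch replicate 2 of batch II, at 237 CPM (the others 265 to 267). Oligodendrocyte precursor markers were low in FID replicate 2 of batch I, at 145 CPM (the others 153 to 154), and in FID replicate 1 of batch II, at 179.8 CPM (the others 186 to 187).

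Log2 effects that differed between the batches at the criterion, each as batch II minus batch I, were those of FIDch against IS for Gsn (0.31), Cfl2 (0.26), Cap1 (0.22) and Rnd3 (0.53). For ISch against IS it was that of Cap1 (0.25), and for FIDch against ISch those of Cfl2 (0.28) and Rnd3 (0.30). For FIDch against FID they were those of Gsn (-0.65), Cfl2 (0.26), Cap1 (0.21) and Rnd3 (0.89). In FID compared to IS, every FID library lay below every IS library for Gsn in batch I (-0.36) and above in batch II (0.58), and that difference was not tested.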

How the results depend on the processing

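Depth limits batch I, where Rnd3 rests on 74 to 230 counts a library and Capg on 11 to 33, and 4 libraries a group let 1 animal decide a call near the fold change of the criterion. Sex and batch changed together. Replicate numbers do not pair libraries: correlations of library pairs with the same number ran from -0.16 to 0.23 in batch I and from -0.15 to 0.19 in batch II. Of 397 values of genes at the criterion under the alternatives, 349 kept the call and 48 lost it, and 0 changed sign; an adjusted p under 0.05 took 18 of 25 calls. Of 100 values of Gsn where it did not meet the criterion, 2 met it and 4 changed sign. Of 39 values given as a description, 0 changed sign and 1 fell under the fold change (Rnd3, 0.19). The cause of a change was not tested.

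Counts of the 9 genes at the criterion changed by over 1.5 times as follows. With an adjusted p under 0.05 in edgeR in place of the criterion, and so with no limit on the fold change, the count was 0 in each comparison of batch I (FID against IS, FIDch against IS, ISch against IS, FIDch against FID and FIDch against ISch), 1 for FIDch against IS in batch II, still 2 for ISch against IS in batch II but with Cap1 in place of Gsn, and for the differences between batches 0 for FIDch against IS, 0 for ISch against IS, 2 for FIDch against FID and 0 for FIDch against ISch. Shares of all genes at that adjusted p were 0%, 0.131%, 0.208%, 1.28% and 0.0430% for those comparisons of batch I, in that order. They were 0.907% for FIDch against IS and 2.54% for ISch against IS in batch II. For the differences between batches they were 0.362%, 1.28%, 2.88% and 0.00661%, in the order above. With DESeq2 the count was 1 for ISch against IS in batch I and 1 for the difference of FIDch against ISch. With the 4 groups in 1 fit it was 1 for FIDch against FID in batch I, and with all genes of at least 1 count it was 2 for FIDch against ISch in batch I. Without ISch replicates 1 and 2 of batch I, chosen after seeing the data, it was 1 for ISch against IS and 2 for FIDch against ISch, where Ppp1r9a was lost and Gsn and Rnd3 were gained. With the replicate number as a block it was 2 for FIDch against ISch in batch I and 1 in batch II, and Ppp1r9a lost the criterion for FIDch against FID in batch I (log2 fold change -0.22, unadjusted p = 0.0682). In the block the edgeR adjusted p in batch II was 0.0116 for Gsn in FID against IS, 0.0494 for Gsn in FIDch against FID, 0.0105 for Rnd3 in FIDch against FID and 0.0496 in FIDch against IS, and Rnd3 in ISch against IS no longer passed (0.0980). Smaller changes were counts of 2 for FID against IS with DESeq2 and for FIDch against FID with RLE size factors, DESeq2 or the block, in batch I.

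With each library left out in turn, the count ran from 1 to 3 for FID against IS, 0 to 1 for FIDch against IS, 1 to 2 for ISch against IS, 1 to 3 for FIDch against FID and 0 to 1 for FIDch against ISch in batch I. In batch II it was 1 throughout for FID against IS and ran from 1 to 3 for FIDch against IS, 1 to 2 for ISch against IS, 2 to 3 for FIDch against FID and 0 to 1 for FIDch against ISch. For the differences between batches it ran from 3 to 4 for FIDch against IS, 1 to 2 for ISch against IS, 3 to 5 for FIDch against FID and 1 to 3 for FIDch against ISch. The Gsn difference under exact permutation in batch II ran from 14.5 to 21.3 CPM for FIDch against IS, 13.8 to 21.0 CPM for ISch against IS and -36.1 to -27.0 CPM for FIDch against FID. Some p values of that test rose above 0.05. With RLE size factors the difference was 17.6 CPM for FIDch against IS (exact permutation p = 0.0571).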
